A study of Mus musculus with 10 samples.

Results

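The genes described here are 36 genes of skeletal muscle contraction and energy supply, measured as a gauge of muscle tissue in mammary fat pads. They were taken from the expression table by gene symbol, and all 36 were found among its 30319 symbols. All 36 also passed the filter on low values, which 16932 genes passed. By role they are 10 thick filament genes, 9 thin filament genes, 6 genes of the Z-disc and titin, 5 genes of calcium handling and 6 genes of muscle energy supply. By fibre class, 14 are typical of fast fibres (Myh1, Myh2, Myh4, Mylpf, Myl1, Mybpc2, Tnnt3, Tnni2, Tnnc2, Actn3, Myoz1, Atp2a1, Casq1 and Pvalb), 6 of slow fibres (Myh7, Myl2, Myl3, Tnnt1, Tnni1 and Tnnc1), and 16 were put in neither class.

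The RNA came from the inguinal mammary fat pads, a subcutaneous depot, of FVB females that were either wild type or Fap-null. Fap encodes fibroblast activation protein, a cell-surface protease of activated fibroblasts. Both genotypes received matched diets with 10% (LFD) or 60% (HFD) of calories from fat from week 12 to week 30 of age. The 4 groups are WT_LFD with 2 libraries, Null_LFD with 3, WT_HFD with 2 and Null_HFD with 3, described by the submitters as biological replicates. The mice carry no transgene that the labels name, and the labels do not say which part of Fap is deleted, in which cells, or how the pads were cut from the body wall.

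Skeletal muscle contracts when thick filaments of myosin pull on thin filaments of actin inside the sarcomere, whose ends are the Z-discs. Calcium released from the sarcoplasmic reticulum binds troponin C and frees actin for myosin, and creatine kinase and glycolysis resupply ATP. Fast and slow fibres build the same machine from different genes for myosin, its light chains and troponin. White fat contains no skeletal muscle fibres, but the inguinal pad lies on the muscles of the abdominal wall and thigh.

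Transcript levels are given as TPM, a share of each library's transcripts scaled by transcript length, which allows genes to be compared. The unit carries no read counts, and sequencing depth is therefore unknown. Genes at 1 TPM or more numbered 14574 to 15700 per library. Fap itself ranged from 37.7 to 68.8 TPM with the wild-type gene and from 18.3 to 38.4 TPM without it, a slight overlap. Fat markers were plentiful in every library, with 8 mature adipocyte genes adding up to between 10301 TPM (Null_HFD 3) and 31926 TPM (WT_LFD 2). A pair of libraries stood apart in lymph node genes. The chemokine gene Ccl21a was at 298 TPM in WT_HFD 2 and 748 TPM in Null_HFD 3, against 0.479 to 15.5 TPM in the other 8. Cd79a, a part of the B cell receptor, was at 63.2 and 153 TPM in those libraries, against 0.249 to 1.90 TPM.

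The promoters of a few members are shown because the 28 of 36 members with a RefSeq promoter entry can be compared with all promoters for short sequences linked to muscle genes. Each line gives the 250 bases before the RefSeq transcription start, 5′ to 3′ on the gene's strand, in build GRCm38.p6. Capitals mark 2 sequences searched on both strands: CAGCTG, an E-box of the kind that MyoD and related muscle factors bind, and TATAAA, the TATA box (TTTATA where it lies on the other strand). The first 3 belong to abundant members, and the last 2, from slow fibre genes, hold no exact match to the motifs searched. Windows not shown, of the fast fibre genes Myh2, Mybpc2 and Pvalb and of Eno3, also hold none. The promoters shown are therefore no comparison of fibre classes. Near its end Tnnc1 holds the similar tatataa, which the search did not count.
Myh4 (chr11:67237562-67237811, + strand): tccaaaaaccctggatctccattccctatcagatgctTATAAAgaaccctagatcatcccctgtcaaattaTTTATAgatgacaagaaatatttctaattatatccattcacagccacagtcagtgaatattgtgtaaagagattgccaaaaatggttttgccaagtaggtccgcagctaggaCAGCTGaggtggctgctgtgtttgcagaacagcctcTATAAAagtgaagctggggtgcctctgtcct
Mylpf (chr7:127211358-127211607, + strand): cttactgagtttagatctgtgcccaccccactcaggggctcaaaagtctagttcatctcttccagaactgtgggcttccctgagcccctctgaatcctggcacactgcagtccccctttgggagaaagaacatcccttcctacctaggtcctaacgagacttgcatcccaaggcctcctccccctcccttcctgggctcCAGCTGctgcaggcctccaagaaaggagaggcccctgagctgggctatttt
Acta1 (chr8:123894776-123895025, - strand): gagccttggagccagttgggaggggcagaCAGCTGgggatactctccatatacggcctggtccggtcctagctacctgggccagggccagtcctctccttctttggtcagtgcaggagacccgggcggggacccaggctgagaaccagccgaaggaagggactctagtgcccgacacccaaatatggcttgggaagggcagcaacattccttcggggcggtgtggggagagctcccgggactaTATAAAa
Myh7 (chr14:54994627-54994876, - strand): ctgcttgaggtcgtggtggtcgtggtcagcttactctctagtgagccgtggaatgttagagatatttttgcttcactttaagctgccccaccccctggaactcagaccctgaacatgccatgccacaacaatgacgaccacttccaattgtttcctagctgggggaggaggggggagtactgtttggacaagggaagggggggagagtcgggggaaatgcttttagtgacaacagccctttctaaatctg
Tnnc1 (chr14:31208062-31208311, + strand): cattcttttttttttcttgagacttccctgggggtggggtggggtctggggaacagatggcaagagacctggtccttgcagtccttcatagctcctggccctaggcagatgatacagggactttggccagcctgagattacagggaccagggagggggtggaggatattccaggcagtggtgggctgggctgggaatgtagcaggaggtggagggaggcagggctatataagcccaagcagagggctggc

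In Myh4 the E-box begins 67 bases and the nearest TATA box 31 bases before the start. Mylpf has its E-box 51 bases before the start, and Acta1 has one at 221 bases. The Myh4 window also overlaps an exon of the antisense RNA Myhas, and the Mylpf window lies inside the longer GENCODE gene, outside its exons. CAGCTG occurred in 13 of 28 member promoters (46.4%), against 12.7% of 27025 RefSeq promoters of the same length. The most upstream RefSeq start of each gene was used. Among the members with CAGCTG, the windows of Atp2a1, Cacna1s, Ckm, Myl1, Pygm, Tnni1 and Tpm2 overlap exons of the same gene in GENCODE. Such overlap was not counted over all promoters. Among fast fibre members it was found in 5 of 10 promoters, and among slow fibre members in 1 of 6, that of Tnni1. TATAAA was found in 17.9% of member promoters against 13% of all. A pattern looser than the core of the MEF2 site, CTA and TAG with any 4 bases between them, was also searched. It was found in 1 member promoter, that of Ttn (3.57%), against 3.23% of all, and these shares are not counts of MEF2 sites. The motifs do not overlap each other in the promoters shown, and a match describes letters only.

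**Figure D1:**
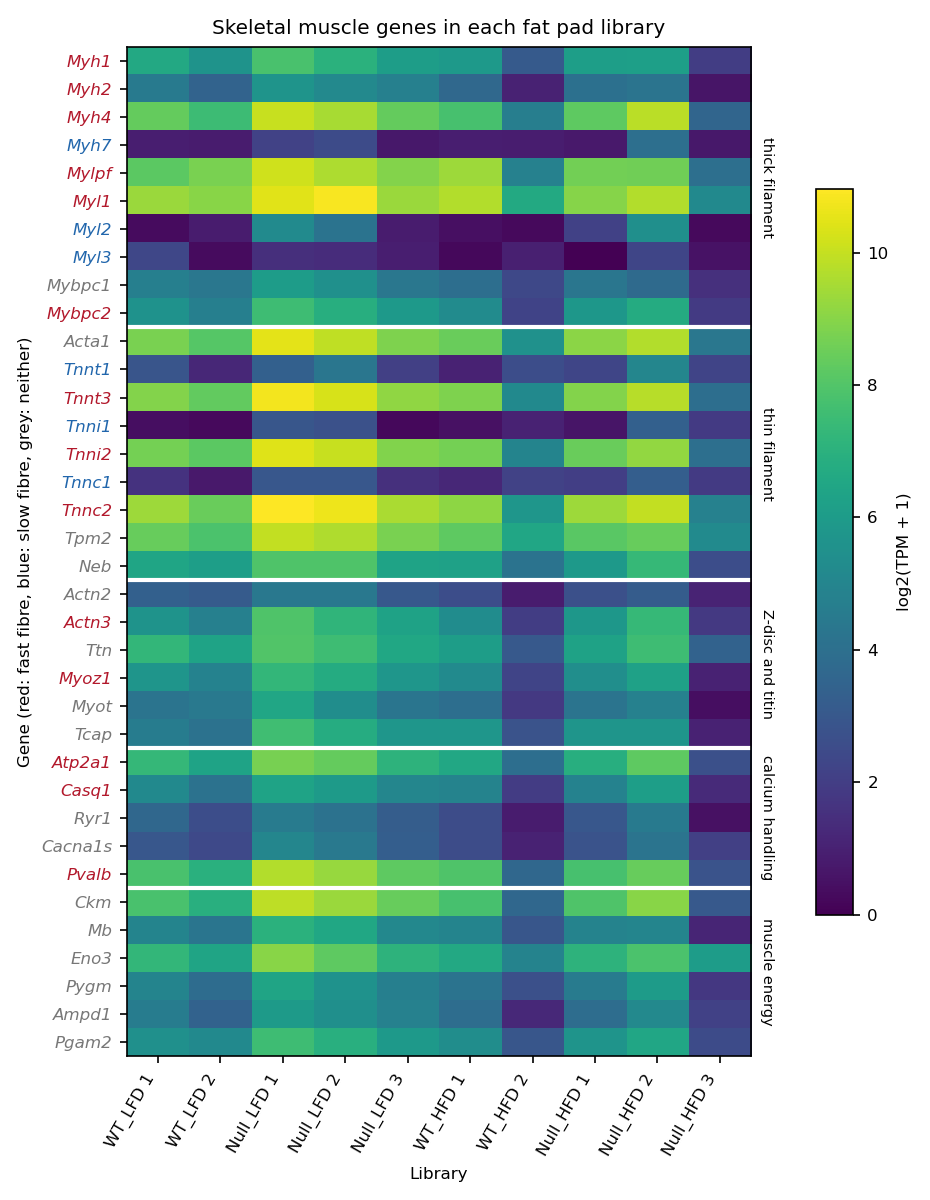
Levels of the 36 genes (rows, by role) in the 10 libraries (columns), as log2(TPM + 1), with gene names in red for fast fibre, blue for slow fibre and grey for neither class. WT_HFD 2 and Null_HFD 3 are the darkest columns, Null_LFD 1 and Null_LFD 2 the brightest, and the slow fibre rows are dark in most libraries.

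Muscle transcripts were present in every fat pad and varied widely between pads of one group. The 36 genes summed to 5118 and 3465 TPM in WT_LFD, 16323, 12621 and 5812 TPM in Null_LFD, 4983 and 563 TPM in WT_HFD, and 4848, 8454 and 316 TPM in Null_HFD. As a share of all TPM this ran from 0.0332% in Null_HFD 3 to 1.72% in Null_LFD 1. Libraries of the same group differed most under the high-fat diet. The mean of the 36 genes on the log2(TPM + 1) scale was 5.20 ± 0.47 (SD, n = 2) in WT_LFD, 6.50 ± 0.84 (SD, n = 3) in Null_LFD, 4.08 ± 1.54 (SD, n = 2) in WT_HFD and 4.74 ± 2.11 (SD, n = 3) in Null_HFD. In such bulk tissue, fewer muscle fibres and less RNA per fibre cannot be told apart.

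The members largely shared one order of libraries. Null_LFD 1 held the highest value of 28 members and Null_LFD 2 that of Myl1 and Actn2. At the other end, 31 of 36 members had WT_HFD 2 and Null_HFD 3 below all other 8 libraries, an order seen in 6.57% of all tested genes. The 5 members without that order were Myh7, Myl3, Tnnt1, Tnni1 and Tnnc1, all of them slow fibre genes. The slow fibre gene Myl2 did have that order. So did Mybpc1, put in neither class here but counted as slow in an alternative. Those 2 libraries are also the ones rich in lymph node transcripts, and they had the lowest sums of 6 brown fat genes, 229 and 105 TPM against 407 to 1735 TPM elsewhere. The part of these tissues in the muscle values was not tested.

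Thick filament genes included the myosin heavy chains, the motor proteins whose type sets the speed of a fibre. Myh4, the heavy chain of the fastest (IIB) fibres, on chromosome 11 (67238029 to 67260446, GRCm38), was measured at 333 and 184 TPM in WT_LFD and at 1067, 745 and 330 TPM in Null_LFD. Under the high-fat diet it stood at 218 and 24.4 TPM in WT_HFD and at 302, 910 and 10.9 TPM in Null_HFD. The low-fat groups overlapped slightly in this gene, since Null_LFD 3 lay just under WT_LFD 1. Its neighbours Myh1 (IIX fibres) and Myh2 (IIA fibres) ran from 2.99 to 227 TPM and from 0.524 to 49.8 TPM over the libraries. Slow fibre myosin, Myh7, on chromosome 14, stayed under 1 TPM in 7 libraries, at 0.615 to 0.909 TPM. It reached 3.51 and 4.68 TPM in Null_LFD 1 and 2 and 15.0 TPM in Null_HFD 2. Those 3 libraries are from null mice, but the other 3 null libraries were as low as wild type.

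The mix of the 4 adult heavy chains varied far less than their sum. Their summed level ran from 15.0 TPM (Null_HFD 3) to 1348 TPM (Null_LFD 1). Myh4 made up 72.2% to 89.7% of that sum, Myh1 7.13% to 22.3%, Myh2 1.72% to 6.29% and Myh7 0.151% to 4.10%. Null_HFD 2 stood apart, with the highest share of Myh4 and the lowest shares of Myh1 and Myh2. Myh4 was 12.6 times Myh1 there, against 3.24 to 5.81 times in the other 9 libraries. These genes resemble each other: of the 31-base stretches of the longest transcript, 39.7% in Myh1, 38.5% in Myh2 and 30.4% in Myh4 also occur in another gene, mostly one of the same cluster. In Myh7 the share was 31.9%, nearly all of it with the heart myosin Myh6. How reads were divided among them by the quantification is therefore uncertain.

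**Figure D2:**
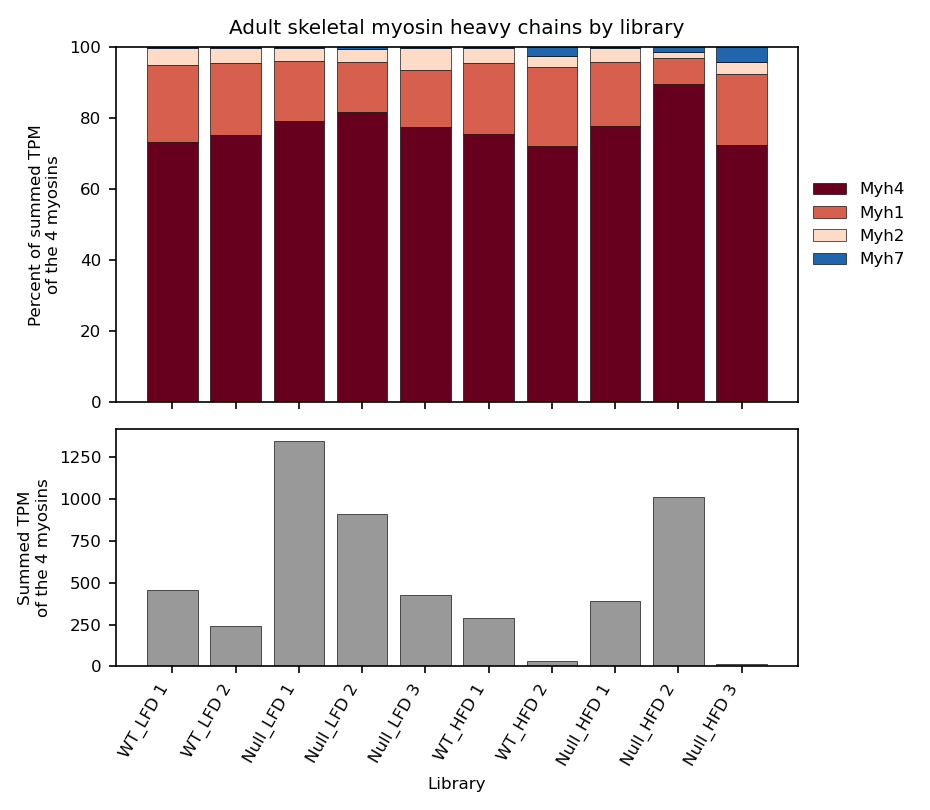
Upper bars: percent of the summed TPM of 4 adult myosin heavy chains taken by each, per library. Lower bars: that summed TPM. Myh4 is the largest share in all 10 libraries, at 72.2% to 89.7%, while the sum ranges from 15.0 to 1348 TPM.

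Myosin light chains, which sit on the neck of the motor, separated by fibre class. Myl1, the fast essential light chain and the thick filament gene with the highest mean, was at 637 and 524 TPM in WT_LFD, 1411, 1854 and 629 TPM in Null_LFD, 821 and 99.3 TPM in WT_HFD, and 494, 832 and 36.1 TPM in Null_HFD. Of the 31-base stretches of the longest Myl1 transcript, 28.4% also occur in Mylf-ps, so how its reads were divided is uncertain too. Mylpf, the fast regulatory light chain, ranged from 15.0 TPM (Null_HFD 3) to 1153 TPM (Null_LFD 1). Its slow counterpart Myl2 was at 0.233 and 0.782 TPM in WT_LFD, 37.2, 17.2 and 0.774 TPM in Null_LFD, 0.368 and 0.212 TPM in WT_HFD, and 3.31, 42.6 and 0.197 TPM in Null_HFD. Myl2 was thus above 17 TPM in the same 3 null libraries that held Myh7, and near the wild-type level in Null_LFD 3 and Null_HFD 3. Myl3, the slow essential light chain, never passed 4.07 TPM (WT_LFD 1) and was listed at 0 in Null_HFD 1. The myosin-binding proteins Mybpc1 and Mybpc2 ranged from 1.83 to 65.1 TPM and from 2.64 to 189 TPM.

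Thin filament genes showed the same contrast in the troponin complex, the calcium switch of actin. Tnnc2, fast fibre troponin C and the member with the highest mean in this role, was at 661 and 354 TPM in WT_LFD, 1997, 1644 and 772 TPM in Null_LFD, 546 and 52.5 TPM in WT_HFD, and 653, 1003 and 27.0 TPM in Null_HFD. All Null_LFD libraries lay above both WT_LFD libraries, while under the high-fat diet the genotypes overlapped. Its slow form Tnnc1 was at 2.08 and 0.662 TPM in WT_LFD, 6.76, 6.91 and 1.83 TPM in Null_LFD, 1.34 and 3.43 TPM in WT_HFD, and 3.14, 8.80 and 2.62 TPM in Null_HFD. Slow troponin T, Tnnt1, was at 6.44 and 1.36 TPM in WT_LFD, 9.36, 18.5 and 3.28 TPM in Null_LFD, 1.07 and 4.95 TPM in WT_HFD, and 3.85, 31.3 and 3.79 TPM in Null_HFD. Unlike nearly all other members, these slow genes were not at their lowest in WT_HFD 2 and Null_HFD 3. Slow troponin I, Tnni1, was at most 2.64 TPM except in Null_LFD 1 (6.59 TPM), Null_LFD 2 (5.59 TPM) and Null_HFD 2 (9.26 TPM). The fast forms Tnnt3 and Tnni2 ranged from 14.7 to 1768 TPM and from 15.1 to 1392 TPM, Acta1, the skeletal actin, from 19.3 to 1441 TPM, tropomyosin Tpm2 from 36.7 to 1000.3 TPM, and Neb, which spans the thin filament, from 5.06 to 246 TPM.

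Z-disc genes and titin hold the filaments in register. Ttn, the elastic giant that links Z-disc and myosin, lies on chromosome 2 (76703980 to 76982547) and was at 153 and 82.3 TPM in WT_LFD, 254, 187 and 92.0 TPM in Null_LFD, 67.6 and 7.32 TPM in WT_HFD, and 79.2, 185 and 9.90 TPM in Null_HFD. Both wild-type high-fat libraries lay below both wild-type low-fat ones in Ttn. Actn2, the alpha-actinin that crosslinks actin in all fibres, was at 9.15 and 7.80 TPM in WT_LFD, 19.7, 20.1 and 7.02 TPM in Null_LFD, 5.03 and 0.774 TPM in WT_HFD, and 5.46, 8.0 and 1.14 TPM in Null_HFD. Tcap, the titin cap, was at 23.4 and 16.7 TPM in WT_LFD, 195, 110 and 53.5 TPM in Null_LFD, 52.9 and 6.01 TPM in WT_HFD, and 51.2, 51.7 and 1.08 TPM in Null_HFD. Tcap did not overlap between the low-fat genotypes or between the diets in null mice. The fast fibre actinin Actn3 ranged from 2.49 to 247 TPM, and the Z-disc proteins Myoz1 and Myot from 1.08 to 151 TPM and from 0.342 to 88.9 TPM.

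Calcium handling genes ran from the voltage sensor of the membrane to the pump that ends contraction. Pvalb, the calcium buffer parvalbumin of fast fibres on chromosome 15, was at 222 and 124 TPM in WT_LFD, 826, 623 and 300 TPM in Null_LFD, 243 and 11.5 TPM in WT_HFD, and 219, 341 and 6.08 TPM in Null_HFD. Low-fat null libraries were all above low-fat wild type. Cacna1s, the voltage sensor, was at 6.97 and 4.37 TPM in WT_LFD, 31.3, 20.9 and 8.67 TPM in Null_LFD, 4.91 and 1.08 TPM in WT_HFD, and 5.96, 17.7 and 3.17 TPM in Null_HFD. Ranges for the others were 5.30 to 418 TPM for the calcium pump Atp2a1, 1.5 to 80.7 TPM for the calcium store Casq1 and 0.421 to 22.7 TPM for the release channel Ryr1.

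Energy genes followed the filaments, with some exceptions in the ratios between them. Ckm, muscle creatine kinase on chromosome 7 (19404776 to 19422841), was at 225 and 120 TPM in WT_LFD, 944, 633 and 342 TPM in Null_LFD, 221 and 11.8 TPM in WT_HFD, and 242, 513 and 7.41 TPM in Null_HFD. Eno3, the muscle enolase of glycolysis, was at 152 and 82.6 TPM in WT_LFD, 510, 301 and 136 TPM in Null_LFD, 97.1 and 28.5 TPM in WT_HFD, and 133, 231 and 65.8 TPM in Null_HFD. Mb, the oxygen carrier myoglobin, was at 30.1 and 18.0 TPM in WT_LFD, 127, 92.0 and 33.3 TPM in Null_LFD, 30.0 and 6.62 TPM in WT_HFD, and 28.9, 30.8 and 1.23 TPM in Null_HFD. Ckm and Mb were both higher in every Null_LFD library than in WT_LFD. Eno3 was 0.398 to 0.686 times Ckm in 8 libraries but 2.41 times in WT_HFD 2 and 8.87 times in Null_HFD 3. Mb was 0.0601 times Ckm in Null_HFD 2, its lowest ratio, and 0.560 times in WT_HFD 2, its highest. Glycogen phosphorylase Pygm ranged from 2.42 to 84.6 TPM, AMP deaminase Ampd1 from 1.42 to 62.4 TPM and the phosphoglycerate mutase Pgam2 from 4.68 to 188 TPM.

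Fast fibre genes far exceeded slow fibre genes in all 10 libraries, and the gap narrowed in 3 of them. The mean of the 14 fast genes minus that of the 6 slow genes, on the log2(TPM + 1) scale, was 5.81 in both WT_LFD libraries and 5.83, 5.39 and 6.34 in Null_LFD. Under the high-fat diet it was 6.29 and 2.41 in WT_HFD and 5.79, 4.00 and 1.59 in Null_HFD. The narrowing had different components. In WT_HFD 2 and Null_HFD 3 the fast mean was 3.73 and 2.84, against 6.52 to 8.85 in the other 8, while their slow means of 1.32 and 1.24 lay within the range of the others. In Null_HFD 2 the fast mean of 7.90 was ordinary and the slow mean of 3.90 was the highest of all. All 6 slow genes are low, so the offset of 1 TPM weighs on their mean.

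Counterpart genes gave the same picture without logarithms. Over 6 pairs of fast and slow counterparts (Mylpf and Myl2, Myl1 and Myl3, Tnnt3 and Tnnt1, Tnni2 and Tnni1, Tnnc2 and Tnnc1, Myh4 and Myh7), the slow forms made up 0.497% and 0.193% of the paired sum in WT_LFD and 0.736%, 0.740% and 0.233% in Null_LFD. They made up 0.137% and 4.08% in WT_HFD and 0.430%, 2.37% and 7.99% in Null_HFD. The summed slow genes were at 110.9 TPM in Null_HFD 2, 65.2 and 54.6 TPM in Null_LFD 1 and 2, and 4.06 to 14.1 TPM in the other 7. Thus the high slow share in WT_HFD 2 and Null_HFD 3 came with slow sums of only 11.5 and 10.3 TPM, inside the range of pads with few slow transcripts. The Tnnt3 to Tnnt1 ratio was 3.87 in Null_HFD 3 and 431 in WT_HFD 1.

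**Figure D3:**
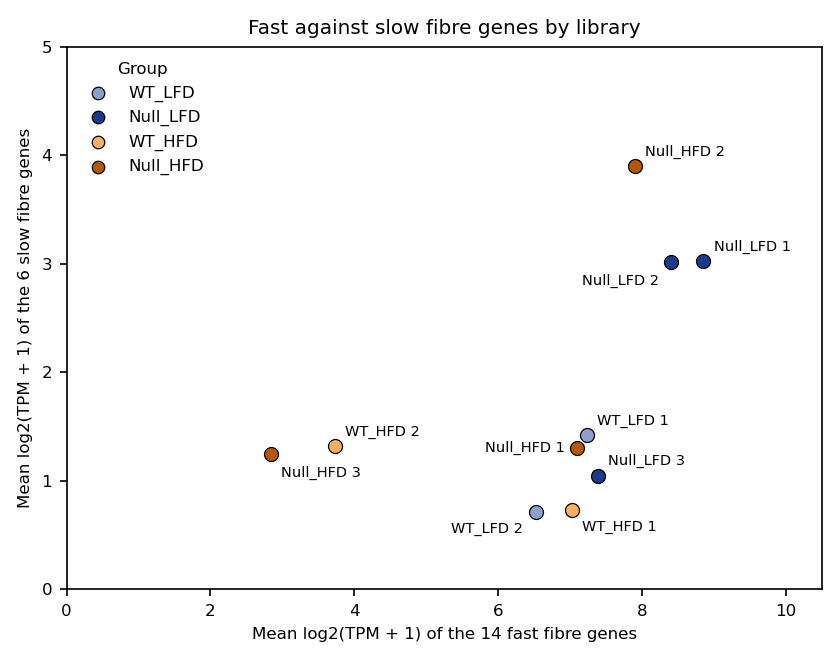
Each point is a library, coloured by group, with the mean log2(TPM + 1) of 14 fast fibre genes (x axis) and of 6 slow fibre genes (y axis). WT_HFD 2 and Null_HFD 3 lie far left at fast means of 3.73 and 2.84, and Null_HFD 2, Null_LFD 1 and Null_LFD 2 lie above a slow mean of 3.

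Likeness between members followed the fibre class over all 10 libraries, but not without WT_HFD 2 and Null_HFD 3. Across the 10 libraries, the correlation of a member with the mean of the other members was 0.905 or higher for the 30 members that are not slow fibre genes. It was 0.37 for Tnni1, 0.43 for Myl3, 0.45 for Tnnc1, 0.48 for Tnnt1, 0.61 for Myh7 and 0.74 for Myl2. Over the 8 libraries without WT_HFD 2 and Null_HFD 3 it was 0.90 for Tnni1 and 0.91 for Tnnc1, so those 2 libraries carried most of the difference for these genes. For the other slow genes it was then 0.88 (Myl2), 0.80 (Tnnt1), 0.73 (Myh7) and 0.56 (Myl3). In the same 8 libraries the fast gene Mylpf, at 0.60, and Mybpc1, at 0.68, lay below most of the slow genes. Myh7, Myl2, Myl3 and Tnni1 had medians under 1 TPM, and Tnnc1 and Tnnt1 medians of 2.88 and 4.4 TPM.

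In null against wild-type pads on the low-fat diet, 35 of 36 muscle genes had a higher group mean in null mice, but none passed the test. The median difference was 1.30 on the log2(TPM + 1) scale, beside a median of 0.15 over all tested genes, 66.9% of which were above 0. Here limma called 0 of 36 members at an adjusted p of at most 0.05 and 0 had an unadjusted p under 0.05, against 0% and 4.43% of all genes. In 17 of 36 members every null library lay above both wild-type libraries, against 19.1% of all genes. Tcap had a difference of 2.34 (SE 1.38), Ckm 1.83 (SE 1.65), Pvalb 1.69 (SE 1.64) and Tnnc2 1.49 (SE 1.45), with a limma adjusted p of 0.949 for each. The smallest limma p among members belonged to Tnnc1, at a difference of 1.30 (SE 0.61) and an adjusted p of 0.949. Fast genes had a median difference of 1.31 and slow genes of 1.24. The 6 mammary luminal genes were also highest in the 2 libraries with the most muscle, at 2453 and 2542 TPM in Null_LFD 1 and 2 against 235 to 1211 TPM elsewhere. Other libraries did not share this order. Null_HFD 2 had 8454 TPM of muscle genes and 480 TPM of luminal genes, and WT_HFD 2 had 563 and 862 TPM. The part of the luminal genes in the genotype differences was not tested.

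On the high-fat diet 31 of 36 members were higher in null mice, with a median of 0.67 beside 0.02 over all genes, 52.1% of which were above 0. limma called 0 of 36 members, against 0.0118% of all genes, and 0 members had an unadjusted p under 0.05, against 3.82%. In 0 of 36 members did the genotypes separate, against 7.73% of genes separated upward and 7.78% downward. Eno3 had the smallest p, with a difference of 1.25 (SE 0.71, limma adjusted p = 1). The direction hung on single libraries: the median was -0.70 without WT_HFD 2, -0.28 without Null_HFD 2, 0.30 without Null_HFD 1, 1.96 without WT_HFD 1 and 1.85 without Null_HFD 3.

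Averaged over the diets, all 36 members were higher in null mice, with a median of 0.94 beside 0.08 over all genes, of which 63.5% were above 0. limma called 0 of 36, against 0% of all genes. An unadjusted p under 0.05 was found for 4 members, against 4.19% of all genes in either direction and 2.9% with a higher mean: Cacna1s at 1.38 (SE 0.51), Eno3 at 1.27 (SE 0.50), Myl2 at 2.55 (SE 1.07) and Tnnc1 at 1.01 (SE 0.43). Their limma adjusted p was 0.98 in each case. Myl2, like Myh7, reached 1 TPM in null libraries alone. Both thus passed the filter only through the genotype with the higher mean, so their direction in the genotype comparisons cannot be read as a finding. Among wild-type libraries Myl3 reached 1 TPM only in WT_LFD 1 and Tnni1 only in WT_HFD 2. No member separated the genotypes over both diets, against 0.543% of all genes upward and 0.378% downward. The median was 0.29 without WT_HFD 2, 0.45 without Null_HFD 2, 1.63 without WT_HFD 1 and 1.52 without Null_HFD 3, so its size also depended on single high-fat libraries.

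**Figure D4:**
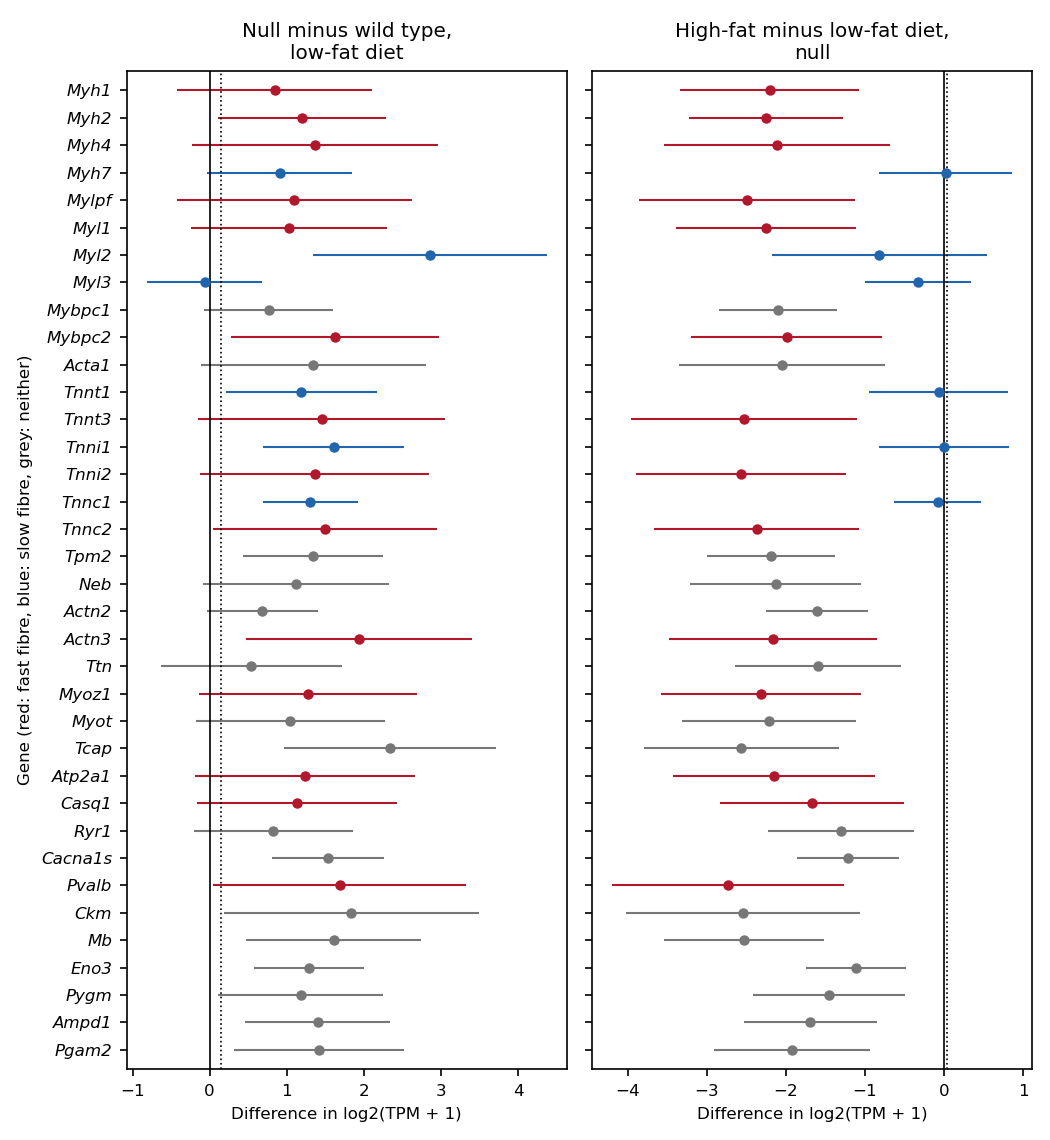
Difference in mean log2(TPM + 1) between groups for each of the 36 genes, with bars of 1 standard error from limma and colours for fibre class (red fast, blue slow, grey neither). The solid line is 0 and the dotted line the median of all tested genes. Genotype differences on the low-fat diet (left) are above 0 for 35 genes, diet differences in null mice (right) are below 0 for 35, and all 6 slow genes lie closer to 0 than any fast gene in the right panel.

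High-fat against low-fat pads of null mice gave lower means for 35 of 36 members, with a median of -2.10 beside 0.04 over all genes, 54.9% of which were above 0. limma called 0 of 36 members, against 0.00591% of all genes. An unadjusted p under 0.05 with a lower mean was found for 5 members, against 3.11% of all genes, or 6.67% in either direction. They include Mybpc1 at -2.10 (SE 0.75), Tpm2 at -2.19 (SE 0.81) and Mb at -2.53 (SE 1.01), each with a limma adjusted p of 0.715. In 6 members (Myh2, Mylpf, Mybpc1, Tpm2, Tcap and Mb) every high-fat library was below every low-fat library, against 4.49% of all genes. The median of fast genes was -2.25 and that of slow genes -0.08. Without Null_HFD 3 the medians were -0.73 over the members, -0.75 for fast genes and 0.27 for slow genes, so 1 library carried most of the diet difference. Without Null_HFD 2 they were -2.89, -3.32 and -0.99, so the slow median near 0 also hung on 1 library. Mammary epithelial genes were lower in the same comparison: all 6 luminal genes had a lower mean and an unadjusted p under 0.05, with a median of -1.80, as did 2 of 4 basal genes. The lymph node genes Ccl21a and Cd79a had differences of 4.65 (SE 1.73) and 2.59 (SE 1.67). The part of these tissues in the muscle differences was not tested.

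In wild-type mice 33 of 36 members were lower on the high-fat diet, with a median of -1.38 beside 0.20 over all genes, 67.1% of which were above 0. limma called 0 of 36, against 0% of all genes, and 0 had an unadjusted p under 0.05, against 5.61%. In 5 members (Mybpc1, Actn2, Ttn, Myot and Ryr1) both high-fat libraries were below both low-fat ones, against 11.5% of all genes, and in Tnni1 both were above, against 33.7%. The smallest p was that of Actn2, at -1.53 (SE 0.79, limma adjusted p = 0.761). Fast genes had a median of -1.56 and slow genes of -0.10. Without WT_HFD 2 the member median was -0.005 and 18 of 36 members were higher on the high-fat diet. Without WT_HFD 1 it was -2.53.

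Averaged over genotypes, 33 of 36 members were lower on the high-fat diet, with a median of -1.62 beside 0.11 over all genes, 63.4% of which were above 0. limma called 0 of 36, against 0% of all genes. An unadjusted p under 0.05 with a lower mean was found for 6 members, against 2.34% of all genes, or 9.69% in either direction. Among them were Actn2 at -1.57 (SE 0.51), Mybpc1 at -1.73 (SE 0.59) and Ttn at -1.92 (SE 0.83), each with a limma adjusted p of 0.513. Mybpc1 alone separated the diets in both genotypes together, against 0.413% of all genes. Fast genes had a median of -1.93 and slow genes of -0.08, and whether the classes differ was not tested. The median over the members was -1.01 without WT_HFD 2 and -0.97 without Null_HFD 3. Without both it was -0.34, with -0.25 for fast and 0.11 for slow genes. Without Null_HFD 2 alone the medians were -2.02 over the members, -2.43 for fast and -0.58 for slow genes.

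The interaction, the genotype difference on the high-fat diet minus that on the low-fat diet, was below 0 for 31 of 36 members, with a median of -0.62 beside -0.13 over all genes, 38.2% of which were above 0. limma called 0 of 36, against 0% of all genes, and 0 had an unadjusted p under 0.05, against 4.14%. Tcap had the smallest p, at -2.46 (SE 1.95, limma adjusted p = 1.00). The interaction's median over the members was 0.74 without WT_HFD 1 and 0.60 without Null_HFD 3, and it ran from -1.93 (without WT_HFD 2) to -0.23 (without Null_LFD 1) when each of the other 8 was left out.

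Other muscle genes, 66 on lists of Z-disc and M-band, filament, calcium, energy, junction, regulator and developmental genes, gave mixed directions by list. Of these, 60 were tested and limma called 0 in any comparison. Averaged over diets, 56 of 60 were higher in null mice, with a median of 0.56, beside 63.5% of all tested genes. An unadjusted p under 0.05 was found for 1 of the 60, a smaller share than the 4.19% of all genes. High-fat minus low-fat was below 0 in 52 of 60 both averaged over genotypes and in null mice, beside 63.4% and 54.9% of all genes above 0. In null mice the median was -1.10, and 13 of 60 had an unadjusted p under 0.05, against 6.67% of all genes. Of the 13, 12 had a lower mean, against 3.11% of all genes, and 1 a higher mean, against 603 of 16932 genes. That 1 was Myl4, the atrial and embryonic light chain. It was at 6.06 and 6.29 TPM in WT_LFD, 5.26, 7.74 and 10.1 TPM in Null_LFD, 12.2 and 17.0 TPM in WT_HFD, and 17.5, 34.9 and 25.5 TPM in Null_HFD. All high-fat libraries lay above all low-fat ones, an order whose share over all genes was not counted. The difference in null mice was 1.62 (SE 0.31, limma adjusted p = 0.627). Myl4 is 1 of 2 tested developmental genes. The other was almost unchanged between the diets, at 0.03 in null mice and -0.04 in wild type. Of 7 neuromuscular junction genes 4 were higher and 3 lower on the high-fat diet in null mice, with a median of 0.10. Myogenin (Myog), a regulator of muscle differentiation, was at 6.08 TPM in Null_LFD 1 and below 1 TPM in the other 9. The satellite cell gene Pax7 did not exceed 0.296 TPM, and embryonic myosin Myh3 did not exceed 0.526 TPM. Mstn, which encodes myostatin, a secreted brake on muscle growth, was at 3.50 to 40.5 TPM in 8 libraries and at 1.10 and 0.307 TPM in WT_HFD 2 and Null_HFD 3.

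Among genes outside the 36, those whose values followed the members' mean most closely over the 10 libraries were Hrc (r = 0.997), Cmya5, Myom1, Asb11, Nrap, Eef1a2, Dhrs7c, Tpm1, Myom2 and Pfkm (r = 0.984). Over the 8 libraries without WT_HFD 2 and Null_HFD 3 the r of Hrc was 0.989. At the other end were Scn2b (r = -0.925), March1, Ighg3, Tbxa2r and Phf11c (r = -0.917), whose r over 8 libraries was between -0.568 and -0.804. A correlation of 0.9 or more was found for 34 of 60 other muscle genes (56.7%) and for 108 of 16896 genes outside the members (0.639%). All points share the same libraries, and these values describe them only.

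Genes of heart, smooth muscle and skin were measured for comparison. The 8 cardiac genes summed to 4.08 to 11 TPM, with the atrial light chain Myl7 listed at 0 in 9 libraries and Myh6 at most 0.414 TPM outside Null_HFD 2, where it was at 2.19 TPM beside its near copy Myh7. The 7 smooth muscle genes summed to 171 to 443 TPM, and to 330 and 192 TPM in WT_HFD 2 and Null_HFD 3, inside the range of the others. Of 6 skin genes, Flg was listed at 0 in all libraries, and Krt1, Lor and Krt77 reached at most 0.182, 0.266 and 0.500 TPM. Krt10 was at 0.868 to 3.05 TPM. Krt15, also a gene of other basal epithelia, was at 48.6 TPM in Null_LFD 3 and at 0 to 9.34 TPM elsewhere, with a difference of 2.46 (SE 1.07, limma adjusted p = 0.949) for null minus wild type with the low-fat feed.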

How the data were processed

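Total RNA of 10 fat pads was sequenced after removal of ribosomal RNA, per the labels' protocols. The authors deposited 1 value per gene and library on the log2(TPM + 1) scale, a unit inferred here from the values, whose back-transformed sums were 946103 to 954463 TPM. The submitters' processing notes name kallisto, limma and build GRCm38, with versions not given in the sources used here. Genes with 1 TPM or more in at least 2 libraries (16932) entered a limma fit (version 3.58.1 under R 4.3.3) of 4 group means with a mean-variance trend, which leaves 6 residual degrees of freedom. Each of 7 comparisons was tested two-sided, with Benjamini-Hochberg adjustment over all genes, and a gene was called where the adjusted p did not exceed 0.05. Differences on this scale understate changes of low genes. The line without a gene symbol was left out of the fit (at most 0.0108% of TPM). The members, fibre classes and gene lists were chosen with earlier results of these data known, so no test was made over a list.

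Values in every library are printed for the member with the highest mean of each role, for the slow fibre members Myl2, Tnnc1 and Tnnt1, and for members with the smallest p. For Mybpc1 and the slow fibre members Myh7, Myl3 and Tnni1, only ranges or single libraries are given. Further members were added after their values were seen. Gene positions and shared 31-base stretches come from GENCODE M21 (GRCm38), promoters from RefSeq (GRCm38.p6). The fit was tested on simulated data with independent noise for each gene. The members here rise and fall together across libraries, so that test does not show how the fit behaves for them as a set. Alternatives changed the offset, the filter, the scaling, the variance model, sample weights, the replicate block and the libraries included.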

Additional observations from a re-analysis of the deposited data

How the results depend on the processing

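In all alternatives run, limma called 0 of the members tested in any of the 7 comparisons. All 36 members were tested except with a filter of 5 TPM, which 34 passed. Counts over all genes were small and moved, in part because 0, 1 or 2 genes were called in each comparison to begin with. With an offset of 0.1, 3 genes were called for genotype averaged over diets, 5 on the low-fat diet, 1 on the high-fat diet and 0 for diet in null mice. An offset of 5 called 1 for genotype on the high-fat diet and 0 for diet in null mice. Without a filter, the counts were 15, 2 and 18 for genotype averaged, low-fat and high-fat, 3, 5 and 0 for diet averaged, in wild type and in null, and 3 for the interaction. Without the mean-variance trend they were 5 for genotype averaged, 1 on the low-fat diet, 2 for diet in wild type and 0 for diet in null mice. Sample weights gave 2 for genotype averaged, 2 on the low-fat diet and 2 for diet in null mice. A fit of only the groups compared gave 1 for genotype on each diet and 2 for diet in null mice. Without WT_HFD 2 and Null_HFD 3, 0 genes were called for genotype on the high-fat diet, 1 for diet averaged and 0 for diet in null mice. Leaving out 1 library at a time gave 0 to 2 for genotype averaged, 0 to 1 on the low-fat diet, 0 to 3 on the high-fat diet, 0 to 1 for diet averaged, 0 to 2 for diet in wild type, 0 to 2 for diet in null mice and 0 to 2 for the interaction, where a group left with 1 library was assumed to vary like the others. The causes were not tested.

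The median over the members kept its direction under other offsets, filters and scalings. Exceptions arose where 1 library was left out, as given beside those medians. Ckm, of which no difference passed the test, changed sign. Its interaction was 0.25 with sample weights, 1.15 without WT_HFD 1 and 0.89 without Null_HFD 3, in a range from -2.96 to 1.15 over the libraries left out. Its diet difference in wild type was 0.42 without WT_HFD 2, and the same without WT_HFD 2 and Null_HFD 3, in a range from -3.69 to 0.42. Its genotype difference on the high-fat diet was -1.13 without WT_HFD 2 and -0.24 without Null_HFD 2, in a range from -1.13 to 2.99. With sample weights the interaction median was 0.15. Fast minus slow over the 6 pairs alone was 7.67 in WT_LFD 2, 7.15 in Null_LFD 2 and 8.17 in WT_HFD 1, and with an offset of 5 it was 4.6 in WT_HFD 1.

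With the replicate number as a block, 3 genes were called for diet in null mice, none of them a member, and the genotype medians were 1.80 averaged, 2.03 on the low-fat and 1.55 on the high-fat diet. Of 13 same-numbered pairs of libraries, 2 had deviations from the group mean that correlated above 0.1 (range -0.35 to 0.41). Of 10 libraries, 7 correlated best with a same-numbered one. In a group of 2 libraries the deviations mirror each other exactly, so some of these correlations fix others. Neither count can decide whether the numbers pair the libraries, and the main fit did not pair them. TPM keeps no depth, so precision at low values, where the slow fibre genes lie, is unknown.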
